A study of Sus scrofa with 6 samples.

Results

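PER1, DBP, RORA and BHLHE40 are 4 genes of the circadian clock and its output, and their transcripts were read in longissimus dorsi, a back muscle, from 6 boars. The members were chosen by name, as every probe set whose platform gene symbol is exactly one of these. The rule used no values, but the choice was made with earlier results of these data known. They are 4 of the 6765 genes that the platform names by a single symbol. Together they have 6 probe sets, 2 for PER1, 2 for BHLHE40 and 1 each for DBP and RORA. Of these, 5 passed the filter on dim probe sets, set at the 40th percentile of log2 intensity averaged over the arrays.

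There were 3 boars of the Northeastern Indigenous breed and 3 Large White boars, the study's control breed. All were slaughtered at 150 days of age after being kept on shared feed and in shared housing, and the muscle was rinsed and frozen in liquid nitrogen. Each boar gave 1 Affymetrix Porcine Genome Array, which reports the brightness of labelled cRNA at each probe set. The labels give the age at slaughter in days. The hour of sampling, on which clock transcripts depend, is not given in the sources used here.

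The mammalian clock is a feedback loop in which the activators CLOCK and BMAL1 (ARNTL) bind E-box elements in DNA and switch on genes whose proteins later shut them off. PER1 is such a repressor, acting with the cryptochromes, and its gene is also induced directly by glucocorticoid hormones and other acute signals. BHLHE40 (DEC1) is a helix-loop-helix repressor that competes for the same E-boxes and also responds to hypoxia and differentiation signals. RORA is a nuclear receptor that drives ARNTL in the stabilising loop, where it opposes the REV-ERB receptors. DBP is a PAR-type leucine zipper activator under direct E-box control, and carries the rhythm to output genes through D-box elements. In skeletal muscle the clock is known for timing glucose use, lipid use and the expression of MYOD1.

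Whole arrays differed in tissue markers. Of 15 skeletal muscle markers, 12 passed the filter, and their summed linear intensity was 309000 to 340000 on the Northeastern Indigenous arrays and 60900 to 322000 on the Large White arrays. Of 10 adipocyte markers, 7 passed, and their sum was 5570 to 8540 on Northeastern Indigenous and 5410 to 65600 on Large White arrays. Large White replicate 1 was low in muscle markers and high in fat markers, replicate 3 was high in fat markers, and replicate 2 lay near the Northeastern Indigenous arrays in both. No marker past the filter was listed at 0 on any array. In such bulk tissue, fewer cells of a type and less RNA per cell cannot be told apart.

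None of the 4 genes passed the test between the breeds, and in each the 2 breeds shared part of their range. Limma called 0 of the 5 member probe sets at an adjusted p under 0.05, against a background of 0% of the 14399 probe sets fitted. At an unadjusted p under 0.05 it also had 0 of 5, where 18.8% of all probe sets had one. The breeds overlapped in all 5, whereas they did not overlap in 25.1% of all probe sets. All 5 differences, Northeastern Indigenous minus Large White, were positive, as were 55.8% of all. Their median was 0.39 log2 units, and the median over all fitted probe sets was 0.10. The exact permutation test over the 6 arrays gave two-sided p of 0.3 to 0.8 for the 5 probe sets, where 0.1 is the smallest p that 3 animals against 3 allow. The share of all probe sets with a positive difference moved to 49.8% when the arrays were left as deposited, and all 5 member differences stayed positive there.

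PER1, the repressor of the core loop, was read by probe set Ssc.16979.1.S1_a_at. Its log2 intensity was 10.61, 9.76 and 10.92 on Northeastern Indigenous replicates 1, 2 and 3, and 9.57, 11.00 and 9.78 on Large White replicates 1, 2 and 3. Each breed thus held both bright and dim arrays, with the brightest and the dimmest of all 6 in Large White. The difference was 0.32 ± 0.48 log2 units (SE; adjusted p = 0.701 in limma), a ratio of 1.25 with a 95% interval of 0.57 to 2.72. Without Large White replicate 1 the difference was 0.043, without Northeastern Indigenous replicate 3 it was 0.072, and with the arrays as deposited it was 0.19.

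The second PER1 probe set, Ssc.16979.2.A1_at, was dim and did not pass the filter. It read 3.83, 4.19 and 3.31 on Northeastern Indigenous replicates 1, 2 and 3, against 5.47, 2.87 and 4.21 on Large White replicates 1, 2 and 3, below the filter's limit of 5.85 on every array. The arrays that were bright for the first PER1 probe set were dim for this one, with a Pearson r of -0.89 between them over the 6 arrays. In the fit without a filter its difference was -0.41 ± 0.78 (SE; adjusted p = 0.816), opposite in sign to that of the brighter probe set. In deposited units its values ran from 10.4 to 19.7 on Northeastern Indigenous and from 7.99 to 47.6 on Large White arrays.

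DBP, the output activator, was nearly equal in the Northeastern Indigenous boars and less so in the Large White boars. Probe set Ssc.5837.1.S1_at read 8.51, 8.71 and 8.61 on Northeastern Indigenous replicates 1, 2 and 3, and 8.18, 8.82 and 8.001 on Large White replicates 1, 2 and 3. The Northeastern Indigenous arrays lay within 0.20 log2 units of each other, Large White replicates 1 and 3 lay below all of them, and replicate 2 lay above all of them. The mean was 8.61 ± 0.10 in Northeastern Indigenous and 8.33 ± 0.43 in Large White boars (SD, n = 3 each), a difference of 0.28 ± 0.29 (SE; adjusted p = 0.571 in limma). The 95% interval of the ratio was 0.754 to 1.95. With the arrays as deposited, the difference was 0.091.

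RORA, the nuclear receptor of the stabilising loop, gave a larger difference with a wider spread. Probe set Ssc.26039.1.S1_at read 8.54, 8.12 and 9.39 on Northeastern Indigenous replicates 1, 2 and 3, and 6.96, 8.96 and 7.41 on Large White replicates 1, 2 and 3. Large White replicates 1 and 3 were the dimmest of the 6 arrays, while Large White replicate 2 was brighter than all but Northeastern Indigenous replicate 3. The means were 8.69 ± 0.65 in Northeastern Indigenous and 7.78 ± 1.05 in Large White boars (SD, n = 3 each). The difference was 0.91 ± 0.58 (SE; adjusted p = 0.376 in limma), a ratio of 1.88 with a 95% interval of 0.732 to 4.81. Without Large White replicate 1 it was 0.50, and without Northeastern Indigenous replicate 3 it was 0.55.

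BHLHE40, the E-box repressor, had 2 probe sets past the filter, and they differed in which arrays were dim. Ssc.25624.1.S1_at read 8.14, 8.01 and 8.04 on Northeastern Indigenous replicates 1, 2 and 3, and 5.93, 8.44 and 6.999 on Large White replicates 1, 2 and 3. The Northeastern Indigenous arrays were nearly equal and the Large White arrays lay on both sides of them. Its difference was 0.94 ± 0.59 (SE; adjusted p = 0.371 in limma), a ratio of 1.92 with a 95% interval of 0.734 to 5.02. Without Large White replicate 1 it was 0.35.

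The other BHLHE40 probe set, Ssc.8947.1.S1_at, spread in the opposite breed. It read 8.78, 8.97 and 6.78 on Northeastern Indigenous replicates 1, 2 and 3, and 7.62, 8.09 and 7.65 on Large White replicates 1, 2 and 3. Northeastern Indigenous replicate 3 was the dimmest array and the other two of its breed the brightest. The SD was 1.21 in Northeastern Indigenous and 0.26 in Large White boars, against 0.065 and 1.26 for Ssc.25624.1.S1_at (n = 3 each). The difference was 0.39 ± 0.58 (SE; adjusted p = 0.692 in limma), and it was 1.09 without Northeastern Indigenous replicate 3 and -0.001 without replicate 2. With the arrays as deposited it was 0.22. The 2 probe sets had a Pearson r of 0.31 over the 6 arrays. The mean of both gave a difference of 0.67 with an adjusted p of 0.417 in limma. Which transcripts each probe set reads was not examined here, so no single value stands for BHLHE40.

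**Figure D1:**
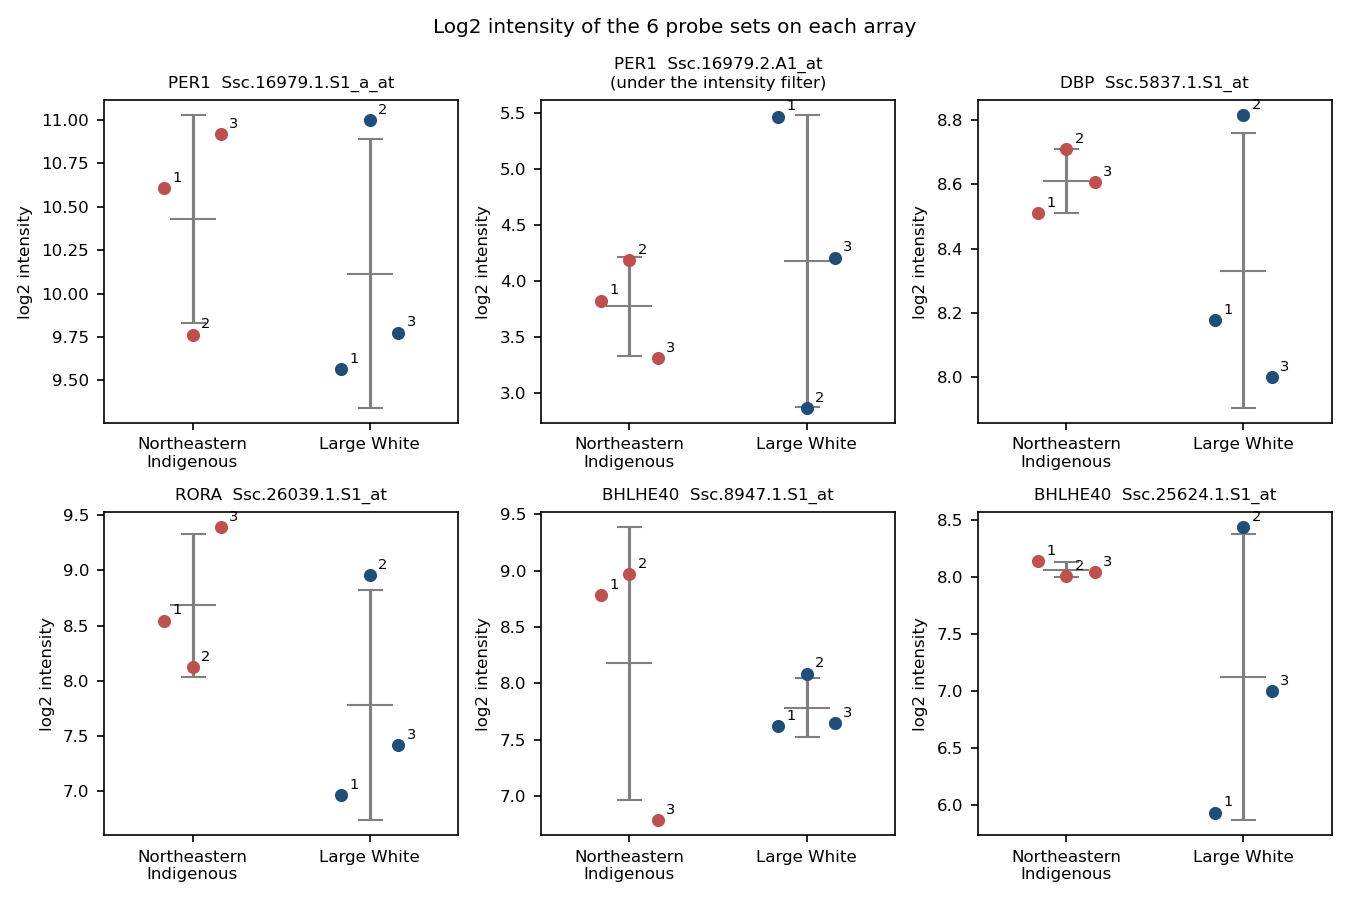
Log2 intensity (vertical axes, each with its own range) of the 6 probe sets in Northeastern Indigenous boars (left, red) and Large White boars (right, blue). Points are arrays labelled by replicate number, and grey bars are the mean and SD of 3 arrays. Large White replicate 2 sits above Large White replicates 1 and 3 in every probe set except the dim Ssc.16979.2.A1_at of PER1, and the 2 BHLHE40 probe sets part on Northeastern Indigenous replicate 3 (6.78 and 8.04).

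Read array by array, the positive differences of PER1, DBP, RORA and BHLHE40 Ssc.25624.1.S1_at rested on Large White replicates 1 and 3. The difference of BHLHE40 Ssc.8947.1.S1_at, 0.39 with all arrays, was 0.31 without the first of these arrays and 0.33 without the other. It was 0.092 without Northeastern Indigenous replicate 1. Large White replicate 1 lay below all Northeastern Indigenous arrays in 4 of the 5 probe sets, where 42.7% of all probe sets did so. Large White replicate 3 did so in 3 of 5, again against 42.7% of all. Relative to the Northeastern Indigenous mean, replicate 1 stood at -0.86 for PER1, -0.43 for DBP, -1.72 for RORA and -2.13 for BHLHE40 Ssc.25624.1.S1_at. Replicate 3 stood at -0.66, -0.61, -1.27 and -1.07 for the same probe sets, in that order. These are the arrays on which the median adipocyte marker stood 6.01 and 4.13 log2 units above the Northeastern Indigenous mean, and the median muscle marker at -3.18 and -0.17. The median leukocyte marker stood at 2.09 and 2.22 there, with 8 of 12 markers past the filter and sums of 2060 to 4100 on Northeastern Indigenous and 7560 to 24400 on Large White arrays. The part of these cell types in the clock gene values was not tested.

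Large White replicate 2 had median muscle and adipocyte markers at 0.017 and -0.12, but leukocyte and fibroblast and matrix markers at 0.82 and 0.41. Of 8 fibroblast and matrix markers, 7 passed the filter. Their sum was 23700 to 33300 on Northeastern Indigenous and 37400 to 96700 on Large White arrays, with 37400 on replicate 2. Large White replicate 2 gave values of the opposite sign for those 4 probe sets. It lay above all Northeastern Indigenous arrays in 3 of the 5 probe sets, where 29.2% of all did so, and within their range in the other 2, where 40.9% of all did so. It stood 0.57 above the mean of the other breed for PER1, 0.21 for DBP, 0.27 for RORA and 0.37 for BHLHE40 Ssc.25624.1.S1_at. With Large White replicates 1 and 3 both left out, the differences of those 4 probe sets were therefore -0.57, -0.21, -0.27 and -0.37, with adjusted p of 0.682 to 0.882 in limma. For BHLHE40 Ssc.8947.1.S1_at, Large White replicate 2 stood at -0.092 and the difference in that fit was 0.092 (adjusted p = 0.979). That fit has 1 Large White array, which is assumed to vary like the others. With Large White replicate 2 left out instead, RORA (1.499, adjusted p = 0.0339) and BHLHE40 Ssc.25624.1.S1_at (1.60, adjusted p = 0.0199) were called. Those were 2 of 5 member probe sets, against 30.7% of all probe sets called in that fit, which sets Large White replicates 1 and 3 against the other breed.

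**Figure D2:**
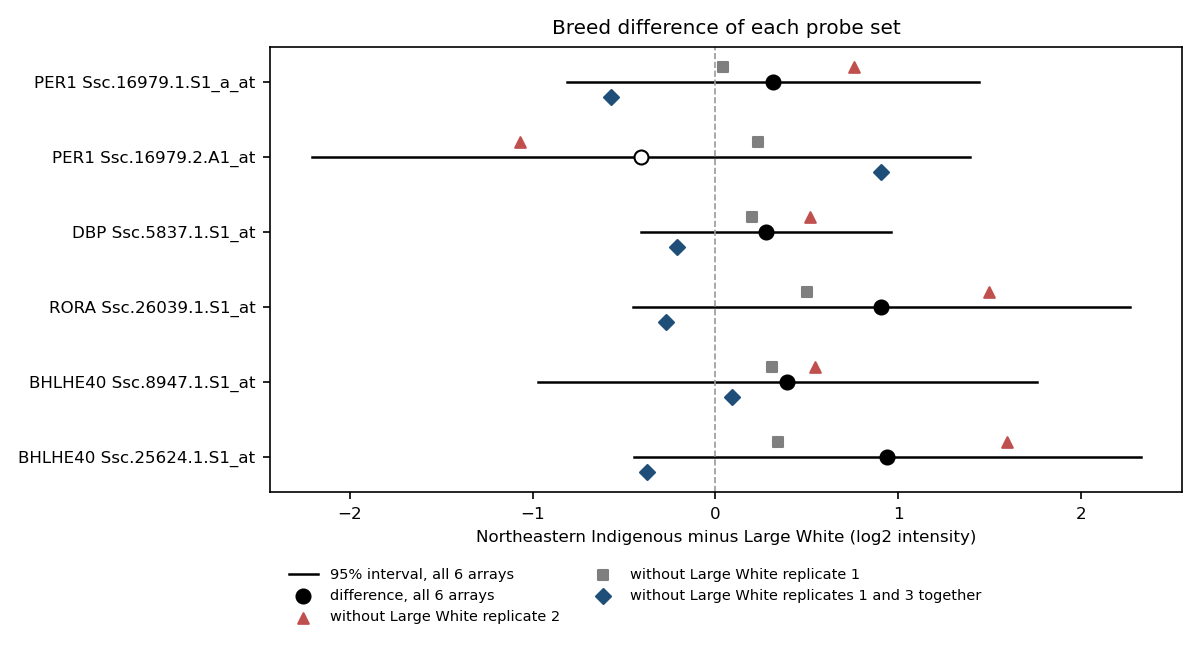
Difference in log2 intensity, Northeastern Indigenous minus Large White (horizontal axis), for the 6 probe sets, with 95% intervals from limma (black, all 6 arrays). The open circle is the PER1 probe set under the filter. Triangles leave out Large White replicate 2, squares replicate 1 and diamonds replicates 1 and 3 together. All 6 intervals span 0, and leaving out Large White replicates 1 and 3 turns the sign of PER1, DBP, RORA and BHLHE40 Ssc.25624.1.S1_at.

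Spread between animals was wider in Large White for 4 of the 5 probe sets, as it was for 71.7% of all probe sets. Over all fitted probe sets the median SD was 0.27 in Northeastern Indigenous and 0.49 in Large White boars (n = 3 each). Within the Northeastern Indigenous breed, BHLHE40 Ssc.8947.1.S1_at had an SD of 1.21, RORA of 0.65 and PER1 of 0.60, all above that median. PER1 and RORA were both dimmest on replicate 2 and brightest on replicate 3 of that breed. DBP, with an SD of 0.10, and BHLHE40 Ssc.25624.1.S1_at, with 0.065, varied little there.

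Across the 6 arrays PER1 and RORA had a Pearson r of 0.92, RORA and BHLHE40 Ssc.25624.1.S1_at 0.88, and DBP 0.66 with PER1 and 0.79 with RORA. BHLHE40 Ssc.8947.1.S1_at did not follow them, at -0.20 with PER1, -0.12 with RORA and 0.31 with DBP, and the dim PER1 probe set had -0.90 with RORA. These values describe 6 arrays of which Large White replicates 1 and 3 stand apart. By the same measure, among 5290 other named genes past the filter, the closest to PER1 were HS1BP3 (r = 0.98), CASC3 (0.98) and FTSJ3 (0.97), and the most opposed SKA2 (-0.99), RUNX1T1 (-0.98) and NTAN1 (-0.98). Closest to DBP were ANGPTL2, RCC1L and RAB11B (0.99 each), and most opposed TPP1 (-0.99), NUDT18 (-0.98) and PRPF38B (-0.98). Closest to RORA were PTER, HOXD10 and PHC1 (0.99 each), and most opposed IFNGR1 (-0.998), UBE2N (-0.996) and ZKSCAN5 (-0.99). Those 3 opposed genes were each brightest on Large White replicate 1 and dimmest on Northeastern Indigenous replicate 3. RORA was dimmest and brightest on those arrays, in that order, so this follows from how the genes were picked. For BHLHE40 the brighter probe set, Ssc.8947.1.S1_at, was followed most closely by ARNT (0.98), VBP1 (0.98) and MSC (0.97), and opposed by VPS16 (-0.99), CEBPD (-0.99) and BRCC3 (-0.96). They are given as a description of these 6 arrays.

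The wider clock was sparsely represented. Of 32 further clock genes, 8 had a probe set under their symbol, with 12 probe sets in all, and PER2, PER3, CRY1, CLOCK, NR1D1, NR1D2, TEF and HLF were among those not analysed here. Limma called 0 of the 12, against 0% of all, and 2 of the 12 had an unadjusted p under 0.05, both higher in Northeastern Indigenous boars, against 18.8% of all in either direction. By the brightest probe set of each gene, 5 of the 8 had a positive and 3 a negative difference, with a median of 0.25.

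ARNTL, the activator partner of CLOCK and the direct target of RORA, read 7.69, 8.28 and 7.72 on Northeastern Indigenous replicates 1, 2 and 3, and 7.54, 8.62 and 7.65 on Large White replicates 1, 2 and 3. Its difference was -0.044 ± 0.37 (SE; adjusted p = 0.95 in limma), with a 95% interval of -0.91 to 0.82. CRY2, the cryptochrome that joins PER1 in repression, differed by 0.14 ± 0.59 (SE; adjusted p = 0.895), and by -0.027 with the arrays as deposited. CRY2 was, like PER1, lowest on Large White replicate 1 (8.03) and highest on Large White replicate 2 (10.20). This was not particular to CRY2. ARNTL (7.54 and 8.62), USP2 (5.60 and 10.59) and NAMPT (10.18 and 11.64) were also lowest and highest on those arrays. The share of all probe sets with this pattern was not counted.

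NFIL3, the repressor that competes with DBP for D-boxes, read 9.83, 10.95 and 7.64 on Northeastern Indigenous replicates 1, 2 and 3, and 9.90, 10.37 and 9.64 on Large White replicates 1, 2 and 3. Northeastern Indigenous replicate 3 stood far below the other 5 arrays. It was also the dimmest for BHLHE40 Ssc.8947.1.S1_at, by less (6.78, with the next dimmest array at 7.62). The difference of NFIL3 was -0.50 ± 0.78 (SE; adjusted p = 0.71), and 0.42 without Northeastern Indigenous replicate 3.

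Among 5 measured genes listed as modifiers of PER and CRY, USP2 and PRKAA2 had the largest differences. USP2, a deubiquitinase that acts on clock proteins, read 10.57, 9.71 and 10.47 on Northeastern Indigenous replicates 1, 2 and 3, and 5.60, 10.59 and 8.14 on Large White replicates 1, 2 and 3. PRKAA2, the muscle catalytic subunit of AMP kinase, which marks cryptochromes for degradation, read 12.62, 12.81 and 13.14, against 7.84, 12.63 and 11.73 on the same replicates. Both were lowest on Large White replicate 1, and near the Northeastern Indigenous values on Large White replicate 2. Their differences were 2.14 ± 1.12 and 2.12 ± 1.12 (SE; adjusted p = 0.318 and 0.32), and without Large White replicate 1 they were 0.88 and 0.68. NAMPT, which supplies NAD to sirtuins under clock control, differed by 0.51 ± 0.40 (adjusted p = 0.454).

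The casein kinases that phosphorylate PER proteins depended on the probe set. The 3 probe sets of CSNK1D differed by 0.35, 0.89 and 0.28, with adjusted p of 0.529, 0.251 and 0.504 in limma, and the breeds did not overlap in Ssc.9746.1.S1_a_at alone. The 3 of CSNK1A1 differed by -0.17, -0.39 and 0.70 (adjusted p = 0.601, 0.359 and 0.254), so its probe sets went in both directions. The breeds did not overlap in 2 of them, Ssc.11159.1.A2_at, lower in Northeastern Indigenous boars, and Ssc.9190.1.A1_at, higher in them. Over the clock list the breeds thus did not overlap in 3 of 12 probe sets, close to the 25.1% of all probe sets.

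Genes that glucocorticoids induce, as they do PER1, shared with it, in 4 cases besides PER1 itself, which Northeastern Indigenous boar was dimmest and which brightest. Of 8 such genes, 7 passed the filter, PER1 included, with 4 positive and 3 negative differences, and limma called 0. Their median, 0.32, was the difference of PER1 itself. FKBP5, a chaperone of the glucocorticoid receptor, read 11.20, 10.23 and 12.28 on Northeastern Indigenous replicates 1, 2 and 3, and 9.42, 9.57 and 9.09 on Large White replicates 1, 2 and 3. KLF9, a glucocorticoid-induced transcription factor, read 11.89, 10.93 and 12.52, against 10.48, 10.09 and 10.96 on those arrays. FBXO32, a ubiquitin ligase of muscle atrophy, read 12.08, 11.07 and 13.03, against 7.91, 10.69 and 9.66. As with PER1 and RORA, replicate 2 was the dimmest and replicate 3 the brightest Northeastern Indigenous boar in these 3 genes. TSC22D3, a glucocorticoid-induced leucine zipper gene, was the other case. It read 12.37, 12.05 and 12.37 on Northeastern Indigenous replicates 1, 2 and 3, with replicates 1 and 3 nearly equal. This order of the boars was not particular to the list. The muscle markers DES (13.09, 12.91 and 13.63 on the same replicates) and ACTN2 (13.74, 13.64 and 14.08) had it too. The muscle marker MYH7 (14.37, 14.64 and 14.91) did not. The share of all probe sets with this order was not counted.

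On Large White replicate 2, FKBP5, KLF9 and FBXO32 parted from PER1. They stood at -1.66, -1.69 and -1.37 there, relative to the Northeastern Indigenous mean, where PER1 stood at 0.57. On Large White replicates 1 and 3 they lay below that mean, as PER1 did (-0.86 and -0.66). FKBP5 stood at -1.82 and -2.15, KLF9 at -1.29 and -0.81, and FBXO32 at -4.15 and -2.40. TSC22D3 and DUSP1 lay above the mean on both of those arrays, and SGK1 on replicate 1 only. The differences of FKBP5 (1.88 ± 0.51, SE), KLF9 (1.27 ± 0.44) and FBXO32 (2.64 ± 0.77) were positive. Their adjusted p in limma was 0.224 to 0.234, so they did not pass. The other members of the list, TSC22D3 (-0.30 ± 0.27, SE), SGK1 (-0.15 ± 0.30) and DUSP1 (-0.26 ± 0.21), had negative differences and did not pass either. Of the 7 genes, 3 had an unadjusted p under 0.05 in limma, against 18.8% of all probe sets. The breeds did not overlap in 2 of the 7, against 25.1% of all.

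**Figure D3:**
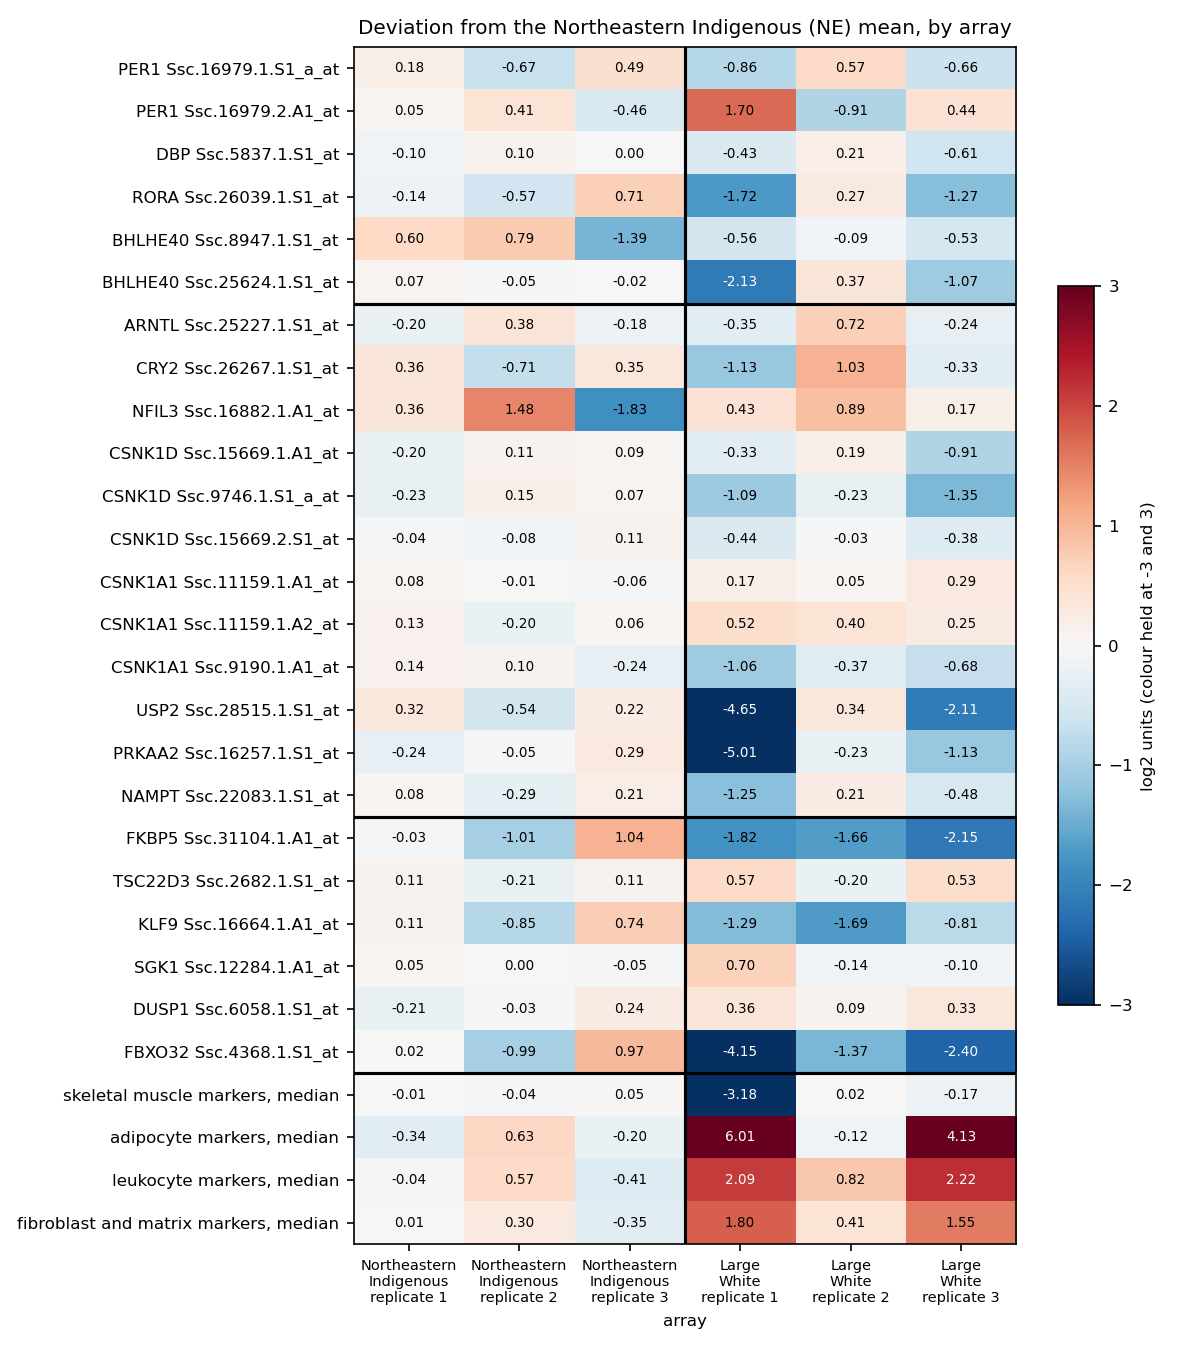
Deviation of each probe set (rows) from its Northeastern Indigenous mean on each array (columns), in log2 units printed in each cell, with the colour scale held at -3 and 3. Blocks from the top are the 6 member probe sets, the 12 of the wider clock list, 6 glucocorticoid-induced genes and the medians of 4 marker lists. Large White replicates 1 and 3 are blue for most clock rows and red for the adipocyte markers (6.01 and 4.13), and Large White replicate 2 is pale or red for the members past the filter, apart from BHLHE40 Ssc.8947.1.S1_at (-0.092).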

How the data were processed

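The authors deposited linear intensities, 1 for each probe set on an array. The software is not given in the sources used here. Without the lowest and highest 2%, the mean intensity of every array lay between 499.796 and 499.859. Such arrays have no read depth, and the number of arrays, 6, limits the precision of the differences. The table held 24123 probe sets, of which 124 controls were left out. Names came from the platform annotation: 10069 probe sets had 1 symbol, 198 several and 13732 none listed.

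Intensities were taken as log2 and quantile normalized, because the array medians spanned 0.35. A filter at the 40th percentile of mean values left 14399 probe sets. Limma 3.58.1, run in R 4.3.3, gave the two-sided test (lmFit, eBayes with an intensity trend, 4 residual degrees of freedom) of Northeastern Indigenous minus Large White, with Benjamini-Hochberg adjustment over all of them and a threshold of 0.05. Errors are given as SD (3 arrays) or as SE (from limma). The fit was tested on simulated data.

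The members, lists and alternatives were chosen with earlier results of these data known. Every member probe set and every measured gene of the lists for the clock is named, with the 3 most and 3 least alike genes of each member's brightest probe set. Same-numbered arrays of the breeds did not deviate together (r of -0.024, -0.16 and -0.11), and the boars were treated as unpaired. With 3 arrays centred on the mean of each breed, this check cannot show that they were not paired. The labels do not say. No genome build or sequence table was used, so no coordinates or sequences are printed.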

Additional observations from a re-analysis of the deposited data

How the results depend on the processing

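The count of 0 called probe sets, for all 14399, the members and the wider clock list, also held as deposited, without a filter, with the 60th percentile filter, with an offset of 16, without the trend, with a robust prior and with the replicate block (0 each). Median centring called 1 of all. Leaving out 1 array gave 0 to 4421 of all, 0 to 2 members and 0 to 3 of the clock list, each highest without Large White replicate 2. With 1 array of each breed per replicate number, the block cannot change a difference, only its test (PER1 0.32, adjusted p = 0.77 in limma).

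Leaving out 1 array gave ranges of 0.50 to 1.499 for RORA, 0.35 to 1.60 for BHLHE40 Ssc.25624.1.S1_at, -0.001 to 1.09 for BHLHE40 Ssc.8947.1.S1_at, 0.043 to 0.76 for PER1, -1.07 to 0.24 for its dim probe set and 0.11 to 0.52 for DBP. ARNTL ran from -0.24 to 0.30, CRY2 from -0.35 to 0.73 and NFIL3 from -1.24 to 0.42. Without Large White replicates 1 and 3 the sign turned for PER1 (-0.57), its dim probe set (0.91), DBP (-0.21), RORA (-0.27), BHLHE40 Ssc.25624.1.S1_at (-0.37), CRY2 (-1.03), CSNK1D Ssc.15669.1.A1_at (-0.19), USP2 (-0.34) and NAMPT (-0.21). It also turned for CRY2 as deposited (-0.027) and for CSNK1A1 Ssc.11159.1.A1_at with median centring (0.077). The cause was not tested.

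The 3 boars of each breed, 2 Large White arrays with raised fat markers and an unstated sampling hour limit what these values can show.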

Other observations

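Hypoxia-induced genes, taken because BHLHE40 and RORA respond to low oxygen, went in both directions. Of 8 genes, 5 passed the filter, with 3 positive and 2 negative differences and a median of 0.33, and limma called 0 of them. CA9, a carbonic anhydrase, read 8.58, 8.98 and 8.94 on Northeastern Indigenous replicates 1, 2 and 3, and 6.39, 8.42 and 7.27 on Large White replicates 1, 2 and 3. SLC2A1, a glucose transporter, went the other way, at 6.52, 6.13 and 5.95, against 7.96, 6.995 and 6.93. The breeds did not overlap in these 2 genes of the 5, where 25.1% of all probe sets did not overlap. VEGFA, the angiogenic factor, differed by 0.60 ± 0.41 (SE) and ADM, a vasodilator peptide, by -0.060 ± 0.33.

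Immediate early genes, which share acute induction with PER1 and BHLHE40, were split as well. Of 8, 6 passed the filter, 3 with positive and 3 with negative differences, and limma called 0 of them. FOS, the 1 gene of the 6 in which the breeds did not overlap, against 25.1% of all probe sets, was lower in Northeastern Indigenous boars, at 12.24, 12.20 and 12.69, against 12.88, 12.99 and 12.79 in Large White boars. ATF3, a stress-induced repressor, read 9.84, 9.52 and 8.94, against 7.53, 9.66 and 7.67, and so was low on Large White replicates 1 and 3, as RORA was.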
